A study of Mus musculus with 5 samples.

Results

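Small GTPase regulators were examined here through their cassette exons, which a mature transcript can keep or leave out. The exons were those of mouse genes whose symbols start with Arhgap, Arhgef, Rapgef, Rasgrp, Rasa, Tbc1d, Agap, Asap, Arfgap, Dock, Dennd or Rabgap. Of the 6331 exon events present in all 6 deposited tables, 89 events in 49 genes met this rule. The files name 34 of them, 7 carry a clone name or older name and were renamed through the gene ID in the files, and 48 were named by matching exon and intron lengths to an annotation. No event of a Rabgap gene was found. Antisense genes named after a regulator (2 events) and unnamed events that share an exon end with these exons (4 events) were left out.

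The RNA came from the left ventricle of C57BL/6 mice aged 12 weeks. Control mice (2 samples) had received citrate buffer into the abdominal cavity and STZ mice (3 samples) streptozotocin at 70 mg/kg over 5 days from an age of 8 weeks. Streptozotocin destroys pancreatic beta cells, the source of insulin, and the series text calls the STZ mice diabetic, a model of type 1 diabetes. The p-values set the difference of the groups against the spread between samples of a group, moderated over all exons. No source used here says that each sample was a separate animal, so this spread may be technical. The library codes of the tables match no sample title: the 2 codes that stand on one side of every table were taken as Control and the 3 on the other side as STZ, from the group sizes alone. These codes also form separate number series that split as the groups do, so a difference of handling and a difference of treatment cannot be told apart.

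Small GTPases, among them Rac, Cdc42 and the Ras, Rap, Arf and Rab families, are switches that are on when bound to GTP and off when bound to GDP. Guanine nucleotide exchange factors (GEFs) load them with GTP, and GTPase-activating proteins (GAPs) speed up hydrolysis and turn them off. In heart muscle, Rac and Cdc42 act on actin and cell shape, Rap and Ras on adhesion and growth signals, and Arf and Rab on membrane traffic, including the traffic of glucose transporters.

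Psi, estimated by the authors in each library, is the fraction of transcripts in which the exon is kept. Informative reads are those that fit only the including or only the skipping isoform, and the read share is the including part of them, not corrected for length. The libraries held 12692236 to 20963751 reads of all classes on the 6331 events, and 8040 to 14507 informative reads on the 89 regulator events. The Control libraries were the deeper ones: the median tested regulator exon had 88 and 131 informative reads in Control and 85, 73 and 60 in STZ. Events of cardiomyocyte genes were covered by reads for 7 of 13 markers, with a median of 320107 reads per library at Pln, the inhibitor of the sarcoplasmic calcium pump, and 43135 at Ttn, the giant spring of the sarcomere. Markers of endothelium (2 of 6), smooth muscle (2 of 5), fibroblasts (1 of 6) and leukocytes (1 of 5) also had events with reads, and neither of the adipocyte markers had one. Exon tables do not give the level of a gene, so the mix of cells in each sample was not measured, and its part in the changes below was not tested.

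In all, 63 of the 89 regulator exons, in 37 genes, had at least 10 informative reads in every library and were tested. A change of Psi was called at 10 of them, 1 in each of 10 genes. Psi was lower in STZ at exons of Agap1, Rapgef1, Dennd2a, Arhgap17, Arhgef11, Arhgef19 and Tbc1d15, and higher at exons of Arfgap1, Arhgef10l and Arhgef7. These calls are 15.9% of the tested regulator exons, beside 15% of all 4769 exons tested (limma on logit Psi, adjusted p under 0.05 over all exons). A model of the inclusion and skipping reads called 6 of the 10 too, in the same direction, beside 469 of the 713 limma calls over all exons. Both models use the same libraries. The Arhgef19 exon had no skipping reads in any library. Lower Psi was called at 7 exons (11.1%, beside 10.1% of all exons) and higher Psi at 3 (4.76%, beside 4.84%). A change of at least 0.10 was called at 8 exons (12.7%, beside 10.2%), 6 lower (beside 7.11% of all) and 2 higher (beside 3.06%). These shares lie near those of all exons, so as a class the regulators were not set apart by the number of calls.

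Sizes of change were spread more widely. Called or not, 23 of the 63 exons (36.5%) moved by at least 0.10 in mean Psi, beside 25.7% of all tested exons. The median change was -0.005 and the median absolute change 0.0483, beside -0.01 and 0.035 over all tested exons. Spread within the groups was wider too: the mean absolute difference in Psi was 0.0478 between the Control libraries and 0.0605 to 0.0695 between STZ libraries, and 0.0995 to 0.113 between libraries of different groups. Over all tested exons the corresponding values were 0.0363, 0.0468 to 0.0501, and 0.0786 to 0.0884. The groups did not overlap at 26 of the 63 exons (41.3%, beside 42.9% of all tested exons). STZ was higher at 10 of the 63 and lower at 16, beside 14.1% and 28.8% of all tested exons. Leaving out any 1 library reduced the calls from 10 to between 1 and 4, while the share over all exons fell from 15% to between 5.88% and 9.72%. Kept were the exon of Tbc1d15 without Control A or Control B, that of Rapgef1 without STZ B, and those of Rapgef1, Arhgef7, Arhgap17 and Arfgap1 without STZ A; without STZ C none of the 10 was kept and the 30-nt exon of Arhgap21 was called. Where 1 Control library is left, it is assumed to vary as the STZ libraries do. At the Tbc1d15 exon clipping Psi to 0.01 makes the STZ libraries equal, so that fit has no spread of its own. Its calls there cannot be read as firmer than those of the other exons.

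**Figure D1:**
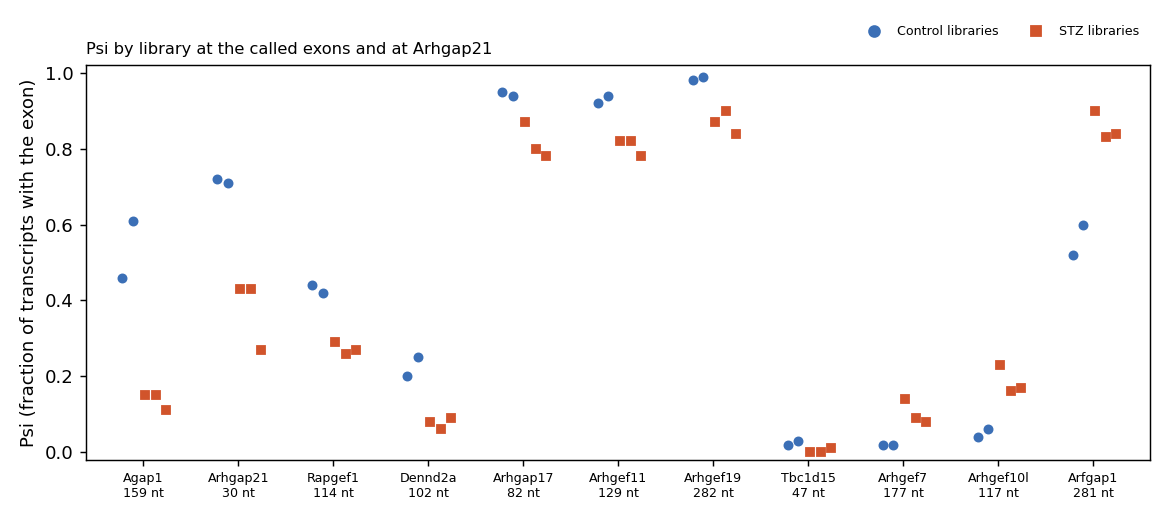
Psi (vertical axis, a fraction from 0 to 1) of each of the 2 Control (circles) and 3 STZ libraries (squares) at the 10 called exons and at the 30-nt exon of Arhgap21, ordered from the largest fall to the largest rise. The groups do not overlap at any of the exons shown; the 159-nt exon of Agap1 falls from 0.46 and 0.61 to between 0.11 and 0.15.

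A length that is a multiple of 3, which leaves the reading frame intact when the exon is skipped, was found for 42 of the 63 tested exons (66.7%), beside 45.7% of all tested exons. Mean Psi lay between 0.10 and 0.90 at 38 of them (60.3%, beside 45%), above at 15 and below at 10. The median exon was 102 nt long, beside 107 nt over all tested exons, and the median introns before and after it were 2007 and 1906 nt, beside 1872 and 1730 nt. By the GENCODE M21 annotation of the genome build GRCm38, matched on lengths only, 46 of the 63 exons are coding over their whole length, 10 in part and 5 not at all, and 2 had no match. Of the 46 whole-coding exons, 36 have a length that is a multiple of 3.

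Arhgef genes, which encode exchange factors that act on actin, held 16 tested exons in 10 genes, and 4 were called (25%), 2 in each direction. Their changes ran from -0.162 to 0.415. Arhgef11 links G proteins of the G12/13 class to actin. Its 129-nt exon (mm9 chromosome 3, 87538346 to 87538474) is the 37th of 40 exons of the transcript Arhgef11-201 and adds 43 codons after codon 1351 of 1552, near the end of the protein. Psi was 0.92 and 0.94 in the Control libraries and 0.82, 0.82 and 0.78 in the STZ libraries. Every STZ library lay below both Control libraries. The means were 0.93 ± 0.0141 (SD, n = 2) and 0.807 ± 0.0231 (SD, n = 3), a fall of 1.16 ± 0.145 (SE) on the logit scale (limma, adjusted p = 0.0242). Skipping reads were 14 beside 780 inclusion reads in Control and 74 beside 1097 in STZ, and in the authors' deposited tables none of the 6 Bayes factors was under 16.45. The call was lost without any 1 of the 5 libraries (limma, adjusted p = 0.0664 to 0.0897).

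Arhgef10 and Arhgef10l are paralogous exchange factors, and each has a cassette exon of 117 nt that adds 39 codons at a codon boundary. The letters of both are shown because these exons of equal length in related genes both had a higher Psi in every STZ library; they come from GENCODE M21 transcripts, 5′ to 3′, with the exon in capitals and 15 bases of each neighbouring exon in lower case.
Arhgef10l 117 nt: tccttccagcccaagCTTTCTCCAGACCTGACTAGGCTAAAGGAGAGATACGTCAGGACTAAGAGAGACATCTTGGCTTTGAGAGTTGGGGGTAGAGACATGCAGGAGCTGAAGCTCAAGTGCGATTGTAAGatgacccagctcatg
Arhgef10 117 nt: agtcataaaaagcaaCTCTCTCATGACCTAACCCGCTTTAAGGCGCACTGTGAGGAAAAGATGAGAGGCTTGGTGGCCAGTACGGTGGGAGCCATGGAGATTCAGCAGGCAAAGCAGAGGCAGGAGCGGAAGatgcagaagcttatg
Compared base by base without gaps, the exons are identical at 63 of 117 positions (53.8%). The Arhgef10l exon (chromosome 4, 140142699 to 140142815) had a Psi of 0.04 and 0.06 in Control and 0.23, 0.16 and 0.17 in STZ. All STZ libraries were above both Control libraries, with means of 0.05 ± 0.0141 and 0.187 ± 0.0379 (limma, adjusted p = 0.0347). Its read share moved from 0.167 to 0.508, with 23 inclusion and 112 skipping reads in Control and 64 and 56 in STZ. The Arhgef10 exon (chromosome 8, 14942610 to 14942726) was at 0.3 and 0.39 in Control and at 0.83, 0.57 and 0.88 in STZ. Groups did not overlap there either, but the STZ libraries were far apart (0.345 ± 0.0636 and 0.76 ± 0.166), and the exon did not pass (limma, adjusted p = 0.134). A model of the reads, with 169 inclusion and 67 skipping reads in Control and 171 and 7 in STZ, called it (adjusted p = 0.0456) and called that of Arhgef10l (0.0265). Without any 1 library the limma call of Arhgef10l was lost (adjusted p = 0.073 to 0.126), and so it was with Psi not put on the logit scale (0.0588).

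Arhgef7, also called beta-Pix, is an exchange factor for Rac and Cdc42 that is bound by the Git proteins and the Pak kinases. Its 177-nt exon (chromosome 8, 11824505 to 11824681) adds 59 codons, and its letters are shown, as above, because its read share changed more than that of any other called exon.
Arhgef7 177 nt: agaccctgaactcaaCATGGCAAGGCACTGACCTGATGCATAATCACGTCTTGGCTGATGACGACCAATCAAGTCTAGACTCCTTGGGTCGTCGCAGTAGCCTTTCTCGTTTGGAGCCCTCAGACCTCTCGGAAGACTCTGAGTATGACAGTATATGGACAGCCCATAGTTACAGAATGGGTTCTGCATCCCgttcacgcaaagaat
Psi was 0.02 in both Control libraries and 0.14, 0.09 and 0.08 in STZ. The groups were apart, at 0.02 ± 0 and 0.103 ± 0.0321 (limma, adjusted p = 0.0282). Inclusion reads numbered 20 and 21 beside 44 and 47 skipping reads in Control, and 83, 46 and 27 beside 21, 18 and 15 in STZ, so the read share rose from 0.311 to 0.72 while Psi stayed low. Of all reads on this event 93.6% fit neither isoform. In the authors' deposited tables all 6 Bayes factors were at least 19.2. The call held without STZ A (adjusted p = 0.0237) and was lost without any other library (up to 0.132), with Psi clipped at 0.05 (0.175) and on the Psi scale (0.104). The upstream 225-nt exon of Arhgef7, the Arhgef exon with most informative reads, was at 0.51 ± 0.0566 in Control and 0.523 ± 0.0306 in STZ (limma, adjusted p = 0.893).

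Arhgef19, another exchange factor of this family, showed a fall of Psi without skipping reads. At its 282-nt exon (chromosome 4, 140802864 to 140803145) Psi was 0.98 and 0.99 in Control and 0.87, 0.9 and 0.84 in STZ, with no overlap (0.985 ± 0.00707 and 0.87 ± 0.03; limma, adjusted p = 0.0261). Skipping reads were 0 in every library, and inclusion reads numbered 738 and 806 in Control and 27, 11 and 20 in STZ. All reads of this event came to 84.1 and 78.2 RPM (reads per 1000000 reads on all events) in Control and to 4.56, 1.86 and 3.78 RPM in STZ, and in RNA of whole tissue fewer cells of a type and less RNA per cell cannot be told apart. A model of the reads did not call this exon (adjusted p = 1), no Bayes factor of the authors' deposited tables reached 10, and the limma call was lost without any 1 library (0.0589 to 0.0853) and with Psi clipped at 0.05 (0.0716). In Arhgef12, the closest relative of Arhgef11, a 57-nt exon was at 0.915 ± 0.0919 in Control and 0.753 ± 0.165 in STZ (adjusted p = 0.373).

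**Figure D2:**
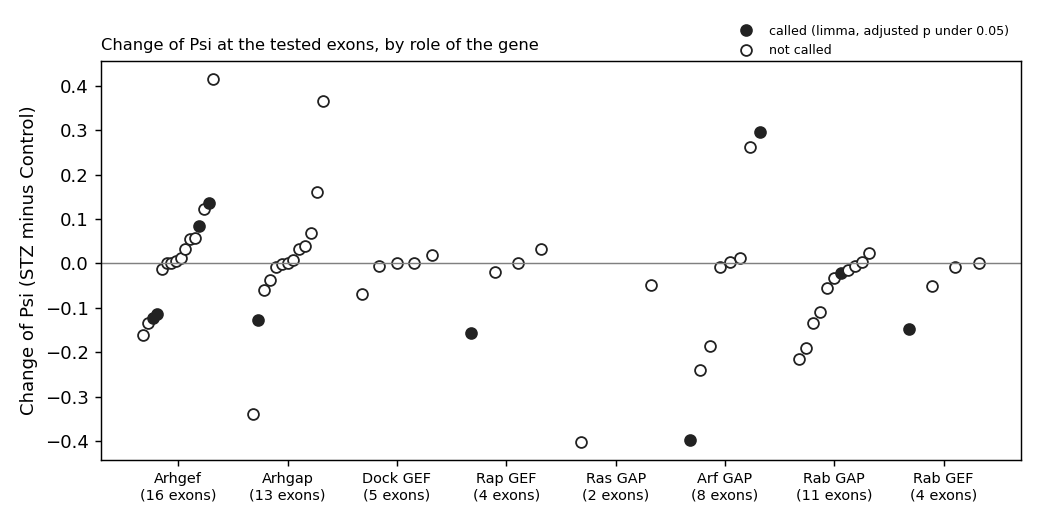
Change in mean Psi (vertical axis, STZ minus Control) of each of the 63 tested exons, grouped by the role of the gene and ordered by change within a role; filled points were called. Calls lie on both sides of 0 among Arhgef genes and Arf GAPs, and the 5 exons of Dock genes stay between -0.0683 and 0.02.

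Arhgap genes, which encode GAPs that act on actin, held 13 tested exons in 7 genes, and 1 was called (7.69%). Arhgap17, also called Rich1, is a GAP for Rac and Cdc42 with a membrane-bending BAR domain. At its 82-nt exon (chromosome 7, 130457928 to 130458009) Psi was 0.95 and 0.94 in Control and 0.87, 0.8 and 0.78 in STZ. The STZ libraries were all lower, at 0.817 ± 0.0473 against 0.945 ± 0.00707 (limma, adjusted p = 0.0483). The length is not a multiple of 3, so skipping shifts the frame. Skipping reads were 0 in Control beside 157 inclusion reads and 7 in STZ beside 174, and the model of the reads did not call the exon (adjusted p = 0.177). The limma call was lost without any library but STZ A (0.119 to 0.19), with Psi clipped at 0.05 (0.0718), on the Psi scale (0.0915) and with no minimum of reads (0.054).

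Near its 3′ end Arhgap17 has a pair of exons, of 48 and 49 nt, that lie between the same flanking exons and so share their skipping reads. Psi of the 48-nt exon was 0.07 and 0.14 in Control and 0.29, 0.3 and 0.21 in STZ, without overlap (limma, adjusted p = 0.0983). The 49-nt exon was at 0.06 and 0.1 in Control and 0.16, 0.11 and 0.07 in STZ, with overlap (adjusted p = 0.605). The 234-nt and 40-nt exons of the gene were at 0.855 and 0.955 in Control and at 0.863 and 0.953 in STZ.

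Arhgap21, a large GAP with a PDZ domain that binds alpha-catenin and Arf1, has a 30-nt exon (chromosome 2, 20804827 to 20804856) that adds 10 codons. Its letters, in capitals between 15 bases of each neighbour, are shown because it is one of only 2 of the 89 exons that passed the authors' measures in every comparison.
Arhgap21 30 nt: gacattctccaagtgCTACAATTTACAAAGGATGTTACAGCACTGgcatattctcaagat
Psi was 0.72 and 0.71 in Control and 0.43, 0.43 and 0.27 in STZ. All STZ libraries lay below 0.45 and both Control libraries above 0.7, with STZ C the lowest. In the authors' deposited tables the difference was 0.28 or more in size in each of the 6 comparisons, with no Bayes factor under 340.8. The other exon that passed a difference of 0.20 and a Bayes factor of 10 throughout was that of Agap1, and 2 of 89 is 2.25%, beside 3.22% of all 6331 exons. Both were lower in STZ, as were 2.15% of all exons, while 1.07% of all and none of the regulator exons passed as higher. In limma the Arhgap21 exon narrowly missed (0.715 ± 0.00707 and 0.377 ± 0.0924, adjusted p = 0.0542). It passed without STZ C (0.0207), with array weights (0.0476) and on the Psi scale (0.0495), and did not pass without any other library (up to 0.206). Inclusion and skipping reads were 183 and 44 in Control and 131 and 124 in STZ, and the model of the reads gave an adjusted p of 0.0584.

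In Arhgap12, a GAP for Rac, a 75-nt exon (chromosome 18, 6057515 to 6057589) was at 0.6 and 0.5 in Control and at 0.91, 0.97 and 0.87 in STZ. The groups did not overlap, and skipping reads, 12 in Control, were 0 in STZ. The change of 0.367 did not pass (limma, adjusted p = 0.0793) but did on the Psi scale (0.0249) and in the model of the reads (0.0163). The Arhgap exon with most reads, of 52 nt in Arhgap44, was at 0.96 ± 0.0283 and 0.9 ± 0.0346 (limma, adjusted p = 0.25).

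Dock proteins are a separate class of exchange factors for Rac and Cdc42. None of their 5 tested exons was called in limma (beside 15% of all tested exons). None had an unadjusted p under 0.05 (beside 32%), and the model of the reads called 0 too (beside 15.9%). Changes ran from -0.0683 to 0.02. The groups overlapped at every one of the 5, while 42.9% of all tested exons had no overlap. With only 5 exons, these counts do not set the Dock genes apart. An 8-nt exon of Dock9, a Cdc42 exchange factor, had a Psi of 0.01 in every library, with 2 inclusion reads in all, both in STZ B, beside 126 to 237 skipping reads per library. A 105-nt exon of Dock6 had a mean of 0.83 in each group (SD 0.0283 in Control and 0.0361 in STZ).

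Rapgef1 loads Rap1 with GTP downstream of Crk adaptors at sites of adhesion, and it was the only Rap GEF gene with tested exons. Of its 4 tested exons 1 was called (25%, beside 15% of all tested exons). The 114-nt exon (chromosome 2, 29535257 to 29535370) adds 38 codons after codon 66 of 1086 in the transcript Rapgef1-203, near the start of the protein. Its letters are shown because it had the smallest adjusted p of the regulator exons.
Rapgef1 114 nt: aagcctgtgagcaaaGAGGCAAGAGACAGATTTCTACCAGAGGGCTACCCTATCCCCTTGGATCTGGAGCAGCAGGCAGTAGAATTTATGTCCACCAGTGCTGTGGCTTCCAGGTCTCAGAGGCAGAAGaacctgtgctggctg
Psi was 0.44 and 0.42 in Control and 0.29, 0.26 and 0.27 in STZ. Libraries of a group lay within 0.03 of each other and the groups 0.13 or more apart. The exon had 503 to 677 informative reads per library, and its read share fell from 0.759 to 0.604. The fall was 0.697 ± 0.0614 (SE) on the logit scale (limma, adjusted p = 0.0134), and all 6 Bayes factors of the authors' tables were above 10, while their differences, 0.13 to 0.18 in size, were under 0.20. The call held without STZ A (0.0254) or STZ B (0.0474) and was lost without STZ C (0.0588), Control B (0.059) or Control A (0.0729).

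Further along Rapgef1, the 153-nt exon was at 0.2 and 0.22 in Control and at 0.33, 0.14 and 0.1 in STZ. STZ A lay above and STZ B and STZ C below both Control libraries, so the mean hardly moved (limma, adjusted p = 0.843), although 5 of the 6 Bayes factors in the authors' deposited tables were at least 10. Without STZ B or STZ C the sign of its change turned, to 0.005 and 0.025. The 258-nt exon, the Rap GEF exon with most reads, was at 0.88 in both groups (SD 0.0141 and 0.0173). The 96-nt exon was at 0.06 and 0.06 in Control and 0.08, 0.11 and 0.09 in STZ, without overlap (limma, adjusted p = 0.0949).

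**Figure D3:**
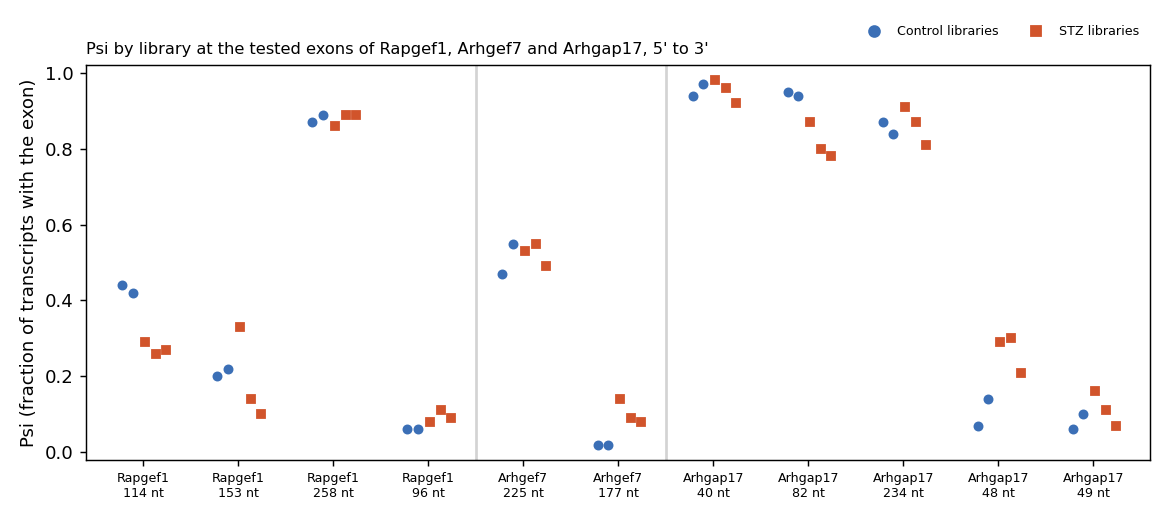
Psi (vertical axis) by library at all tested exons of Rapgef1, Arhgef7 and Arhgap17, in the order of the transcript. Within Rapgef1 the 114-nt exon is lower in every STZ library, the 153-nt exon is higher in STZ A (0.33) and lower in STZ B and STZ C (0.14 and 0.1), and the 258-nt exon stays between 0.86 and 0.89.

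Ras regulators were few. Rasa4, also called Capri, is a Ras GAP that responds to calcium, and both of its exons were tested. The 113-nt exon (chromosome 5, 136577815 to 136577927) was at 0.71 and 0.92 in Control and at 0.36, 0.4 and 0.48 in STZ. This mean change of -0.402 was the most negative among the tested regulator exons, but the Control libraries differed by more than any pair of STZ libraries, and it did not pass (limma, adjusted p = 0.1; without any 1 library 0.054 to 0.235). It had 151 inclusion and 10 skipping reads in Control and 56 and 27 in STZ (model of the reads, adjusted p = 0.0671). The 138-nt exon of Rasa4 was at 0.885 ± 0.0919 and 0.837 ± 0.0404 (limma, adjusted p = 0.557). The single Ras GEF exon, of Rasgrp3, was not tested for lack of reads.

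Arf GAPs, which switch off the Arf proteins of membrane traffic, held 8 tested exons in 4 genes, and 2 were called (25%). Agap1, an Arf GAP that binds the adaptor complex AP-3 of endosomes, had the largest called fall. Its 159-nt exon (chromosome 1, 91662881 to 91663039) is the 12th of 18 exons of the transcript Agap1-201 and adds 53 codons after codon 441 of 857. The letters are given for that reason.
Agap1 159 nt: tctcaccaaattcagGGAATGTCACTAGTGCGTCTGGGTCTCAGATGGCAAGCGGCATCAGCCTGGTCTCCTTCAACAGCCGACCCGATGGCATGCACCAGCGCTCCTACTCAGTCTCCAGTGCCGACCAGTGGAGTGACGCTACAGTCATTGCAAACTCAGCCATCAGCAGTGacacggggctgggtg
Psi was 0.46 and 0.61 in Control and 0.15, 0.15 and 0.11 in STZ. The highest STZ library lay 0.31 below the lowest Control library. Inclusion reads numbered 337 beside 37 skipping reads in Control and 78 beside 73 in STZ, and the read share fell from 0.894 to 0.519. The means were 0.535 ± 0.106 and 0.137 ± 0.0231, a fall of 2.00 ± 0.253 (SE) on the logit scale (limma, adjusted p = 0.0251). The model of the reads called it too (adjusted p = 0.0126), and the limma call was lost without any 1 library (0.0535 to 0.0814).

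Arfgap1, the Golgi GAP for Arf1, has a 281-nt exon (chromosome 2, 180702239 to 180702519) and a 213-nt exon that ends at the same base and shares its skipping reads. Both lie outside the coding part of the matched transcripts. Psi of the longer one was 0.52 and 0.6 in Control and 0.9, 0.83 and 0.84 in STZ, without overlap (0.56 ± 0.0566 and 0.857 ± 0.0379; limma, adjusted p = 0.0376). Skipping reads were few, 6 in Control beside 389 inclusion reads and 0 in STZ beside 376, so the read share moved only from 0.985 to 1. The shorter one was at 0.59 and 0.7 in Control and 0.83, 0.96 and 0.93 in STZ and did not pass (adjusted p = 0.125). Leaving out any library but STZ A ended the call of the longer exon (0.0914 to 0.157), as did clipping Psi at 0.05 (0.0575). A 60-nt coding exon of Arfgap1 was at 0.81 and 0.73 in Control and 0.34, 0.7 and 0.55 in STZ (adjusted p = 0.282).

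Asap1, an Arf GAP of focal adhesions that binds Src and focal adhesion kinase, had the Arf GAP exon with most reads. Its 171-nt exon (chromosome 15, 63942468 to 63942638), of 57 codons, was at 0.56 and 0.62 in Control and 0.43, 0.43 and 0.35 in STZ. The groups were apart but the change did not pass (0.59 ± 0.0424 and 0.403 ± 0.0462; limma, adjusted p = 0.0592). Inclusion reads on this exon were 164 and 220 in Control and 328, 399 and 399 in STZ, and skipping reads 8 and 11, and 50, 48 and 75.

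Rab GAPs of the Tbc1d family, which switch off Rab proteins, held 11 tested exons in 7 genes. Of these, 9 had a lower mean in STZ (81.8%, beside 59.8% of all tested exons). Both overlapping events of Tbc1d24 are among the 11 and had no skipping reads, so the 11 are not separate observations. Limma called 1 of the 11 (9.09%, beside 15% of all tested exons). That call was small: a 47-nt exon of Tbc1d15, a GAP for Rab7 that also acts at mitochondria, was at 0.02 and 0.03 in Control and at 0, 0 and 0.01 in STZ (chromosome 10, 114657744 to 114657790; limma, adjusted p = 0.0376). Inclusion reads were 7 in Control and 1 in STZ, beside 112 and 549 skipping reads. It was not called by the model of the reads (0.0863), with Psi clipped at 0.001 (0.163) or 0.05 (1), on the Psi scale (0.156), or without STZ A, STZ B or STZ C (0.104 to 0.119). Tbc1d4, also called AS160, is the Akt substrate that holds back glucose transporter vesicles until insulin signals. Its 92-nt exon was at 0.98 and 1 in Control and at 0.96, 0.95 and 0.96 in STZ (limma, adjusted p = 0.0691), and its 24-nt exon at 0.01 in every library but STZ B, which had 0.02. The Tbc1d exon with most reads, of 119 nt in Tbc1d9b, was at 0.985 ± 0.00707 and 0.97 ± 0.01 (adjusted p = 0.261).

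Dennd proteins, the Rab GEFs, held 4 tested exons in 4 genes, and 1 was called (25%). Dennd2a is an exchange factor for Rab9 in traffic between endosomes and the Golgi. At its 102-nt exon (chromosome 6, 39477481 to 39477582), outside the coding part of the matched transcript, Psi was 0.2 and 0.25 in Control and 0.08, 0.06 and 0.09 in STZ. All STZ libraries were lower (0.225 ± 0.0354 and 0.0767 ± 0.0153; limma, adjusted p = 0.0347), but only 13 to 27 informative reads per library stood behind these values. The call was lost in the model of the reads (adjusted p = 0.0974) and without any 1 library (limma, 0.0739 to 0.142). A 72-nt exon of Dennd5a, the Rab GEF exon with most reads, was at 0.99 or 1 in every library.

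**Figure D4:**
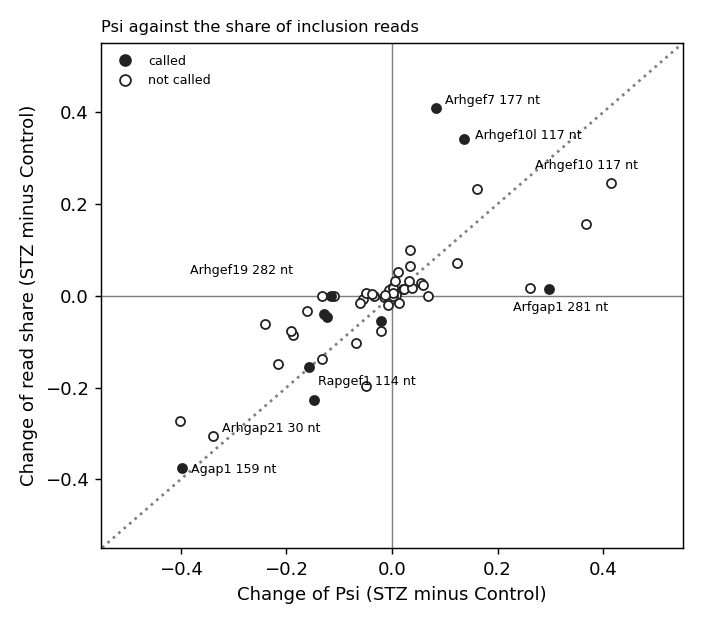
Change of mean Psi (horizontal axis) against the change of the mean read share (vertical axis), both as STZ minus Control, for the 63 tested exons; filled points were called and the dotted line marks equal changes. Agap1, Rapgef1 and Arhgap21 lie near the line, the 177-nt exon of Arhgef7 far above it (0.0833 in Psi), and the 281-nt exon of Arfgap1 and the 282-nt exon of Arhgef19 at a change of the read share close to 0.

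Psi and reads thus moved together at some exons and not at others, as the plot of Psi against read share shows. A model of the inclusion and skipping reads called 10 of the 63 exons (15.9%), beside 15.9% of all tested exons. Called by both, in the same direction, were 6 of the 10 limma calls, beside 469 of 713 over all exons. These 6 were the exons of Agap1, Rapgef1, Arhgef11, Arhgef7 (177 nt), Arhgef10l and the 281-nt exon of Arfgap1. Called by the reads alone were exons of Arhgap12 (75 nt), Arhgef10 (117 nt), Arfgap1 (213 nt) and Tbc1d9b (51 nt, adjusted p = 0.00963). Skipping reads were 0 in all libraries at 5 of the tested exons, among them both Tbc1d24 exons and the exon of Arhgef19.

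Low reads kept 26 exons of 21 genes out of the test, and 11 of them were at most 36 nt long, as were 8 of the tested ones. A median of 89% of their reads fit neither isoform, beside 54.7% for the tested exons. Mean Psi differed between the groups by -0.375 to 0.388 among them, with no overlap at 10 (38.5%, beside 35.3% of all 1562 untested exons). None of these differences was tested. The largest difference upward was at a 66-nt exon of Dennd5b, with a Psi of 0.4 and 0.61 in Control and 0.92, 0.88 and 0.88 in STZ on as few as 5 informative reads.

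Other genes of the small GTPase pathway, from a list of GTPases, further regulators and effectors, had 87 tested exons in 68 genes. Of these exons 10 were called (11.5%, beside 15% of all exons). Psi was called higher in STZ at 1 (1.15%, beside 4.84%) and lower at 9 (10.3%, beside 10.1%). Among the GTPases themselves 2 of 29 exons were called (6.9%, beside 15%). The largest change was at Rab7b, a Rab of late endosomes, whose 126-nt exon was at 0.61 and 0.73 in Control and at 0.27, 0.22 and 0.13 in STZ (limma, adjusted p = 0.0438). None of 16 exons of other exchange factors was called in limma (beside 15% of all tested exons). Among them 6 had an unadjusted p under 0.05 (beside 32% of all tested exons). The model of the reads called 2 of them (12.5%, beside 15.9%). Of 29 exons of other GAPs 6 were called (20.7%, beside 15%). Git2, the Arf GAP that binds Arhgef7, had a 150-nt exon at 0.57 and 0.54 in Control and 0.37, 0.35 and 0.32 in STZ (adjusted p = 0.0191). Lower Psi was also called at exons of Agfg1 (93 nt, 0.93 to 0.693), Myo9b, a myosin with a GAP domain (48 nt, 0.935 to 0.783), and Fam13b (192 nt, 0.82 to 0.443). The 1 exon called higher was another of Fam13b, of 124 nt (0.01 to 0.12), named after its values were seen. Of 13 effector exons 2 were called (15.4%, beside 15% of all tested exons). The larger change was at a 105-nt exon of Rabep1, a Rab5 effector of early endosomes (0.87 ± 0.0283 to 0.577 ± 0.0493, limma adjusted p = 0.0209).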

How the data were processed

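Left ventricle RNA of 2 Control and 3 STZ samples was sequenced on a HiSeq 1000. Per the submitters' processing notes, CASAVA 1.8.2, the aligner TopHat and the genome build mm9 were used. Each of the 6 deposited tables compares 1 Control with 1 STZ library by MISO, per the file headers. Psi is a fraction, estimated by the authors. The authors also deposited, per the file headers, read counts by class, the difference of Psi, and a Bayes factor, a ratio of evidence for a difference to evidence for none. A further 36 columns of values per library (bounds of Psi and reads assigned to isoforms) were not used. No value of a library differed between tables.

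Blank gene names were filled from GENCODE M21 by exon and intron lengths (25 ambiguous and 327 unmatched events stayed unnamed); the rule named the same gene as the files at 97% of the 3193 file-named events it matched. Exon letters come from GENCODE M21 transcripts and were not checked against mm9.

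Psi was clipped to 0.01 to 0.99, put on the logit scale and compared with limma 3.58.1 in R 4.3.3 (trended empirical Bayes, two-sided, Benjamini-Hochberg over the 4769 exons with at least 10 informative reads in every library). A quasi-binomial model of inclusion and skipping reads, with variances squeezed in limma, was an alternative, as were other minimums, clips, priors, weights and leaving out each library. Both models were run on simulated data whose Psi was computed from inclusion and skipping reads alone. The authors' Psi departs from the read share at many exons, so the simulation does not test the models on that Psi.

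Named are called exons that changed by at least 0.10, exons past the authors' measures, tested exons of Arhgap21, Arhgef11, Rapgef1 and Agap1, the exon with most reads in each role, the 5 largest changes not called, and up to 6 called exons of other pathway genes. All others named were chosen after their values were seen. The genes and lists were chosen with earlier results of these data known.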

Additional observations from a re-analysis of the deposited data

How the results depend on the processing

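The tested regulator exons called numbered 8 to 11 with a minimum of 20 informative reads, no minimum, Psi clipped at 0.001, Psi not on the logit scale, a single prior variance, array weights or the model of the reads, and 6 with Psi clipped at 0.05. Leaving out 1 library gave 1 to 4 calls, 282 to 467 calls over all exons, and 1 to 5 among the other small GTPase genes, which had 6 with Psi clipped at 0.05. With a difference of 0.10 in place of 0.20, 4 exons passed the authors' measures. The median change kept its sign. Of 323 alternatives at single named exons, 250 stayed on their side of the threshold without turning the sign (a change of 0 has none to turn), 58 lost the call, 7 gained it and 8 turned the sign, none of these at a called exon. Those 8 were the 153-nt exon of Rapgef1 without STZ B (0.005) or STZ C (0.025), the 138-nt exon of Rasa4 without Control B (0.0167) or in read share (0.0058), the 72-nt exon of Dennd5a without Control A (-0.0033) or in read share (-0.0024), and the 225-nt exon of Arhgef7 without Control A (-0.0267) or in read share (-0.0164). Leaving out single libraries, their changes ran from -0.09 to 0.025 at Rapgef1, from -0.1133 to 0.0167 at Rasa4, from -0.0033 to 0.0067 at Dennd5a and from -0.0267 to 0.0533 at Arhgef7. The cause was not tested. No paired analysis was possible because the columns carry no replicate number that matches the labels. Exons of Arhgef19 and Dennd2a had too few reads for the minimum of 20. Too few informative reads kept 26 exons untested.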

Other observations

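The reads on an event also give a rough level of that stretch of the gene. Over the 63 tested regulator exons the median ratio of STZ to Control in reads per 1000000 event reads (RPM) was 1.14, beside 0.873 over all 4769 tested exons. The ratio was under 0.5 at 7 exons (11.1%, beside 16.5% of all) and above 2 at 6 (9.52%, beside 7.88%). The event of Arhgef19, at 0.0419, had the lowest ratio of all 4769. Both overlapping events of Tbc1d24, a regulator of vesicle traffic, also had a low ratio: its 998-nt event came to 46.8 and 53.1 RPM in Control and 15.3, 6.19 and 5.67 in STZ. The highest ratio, 3.59, was at Tbc1d15, with 21.9 and 22.8 RPM in Control and 101, 75.1 and 65.1 in STZ. The 171-nt event of Asap1 had 24.7 and 26.4 in Control and 71.4, 81.6 and 95.9 in STZ. The groups do not overlap at any of these events, which were picked for their ratios, so this lack of overlap is no separate evidence. These ratios were not tested and are no measure of the whole gene.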
